A study of Mus musculus with 47 samples.

Results

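The proteasome genes of the mouse hippocampus were examined in 47 bulk RNA-seq libraries. Members were the 44 of 35486 genes in the count table whose symbols follow the proteasome pattern Psma, Psmb, Psmc, Psmd, Psme, Psmf or Psmg with a number and whose reads summed to at least 470 over the 47 libraries, with the inducible subunits Psmb8 and Psmb9 left out. All 44 were among the 17778 genes that passed the count filter for testing. Just outside the count minimum lay Psmb11, a thymus subunit, with 52 reads in all and Psma8, a testis subunit, with 244, and the member with the fewest reads was the assembly chaperone Psmg4 with 3350. The libraries came from the hippocampus of male mice on the C57BL/6J background. Mice were young, aged 3.75 to 5.26 months, or old, aged 17.4 to 20.23 months, and were injected intraperitoneally each day, per the study's methods, with mouse platelet factor 4 (PF4), a chemokine of platelets, or with phosphate-buffered saline as vehicle (Veh). The groups were Young Veh (n = 13), Young PF4 (n = 12), Old Veh (n = 12) and Old PF4 (n = 10), and no group carried a transgene or a deletion. Libraries were unstranded and made from whole tissue, so fewer cells of a type and less RNA per cell cannot be told apart.

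The 26S proteasome is the protease that takes apart proteins tagged with ubiquitin. Its 20S core stacks rings of alpha subunits, which form the gate, around rings of beta subunits, of which Psmb6, Psmb7 and Psmb5 hold the active sites. The 19S cap binds and unfolds the substrate with a ring of ATPases (Psmc) and with non-ATPase subunits (Psmd) that bind ubiquitin or remove it, and other activators (Psme) can replace the cap. In neurons the proteasome sets how long many synaptic proteins last, and the transcription factor Nfe2l1 is known to raise the subunit genes together when proteasome activity falls.

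Markers of hippocampal neurons, astrocytes, oligodendrocytes and microglia were present in all 47 libraries, as the tissue label says, with a mean log2 CPM (reads of a gene scaled to a common library total) of the neuronal markers between 8.12 and 8.36. The choroid plexus markers varied widely: their mean log2 CPM ran from -0.13 to 6.12, with medians of 5.07 in Young Veh, 5.44 in Young PF4, 0.91 in Old Veh and 1.30 in Old PF4. Total counts ranged from 2242879 to 21112908 (median 10374007), and 4 of the 8 shallowest libraries were Old Veh. Young Veh replicate 4 and Old PF4 replicate 8, picked for the highest mean log2 CPM over the members, stood apart from the others. They had the lowest TMM normalization factors, 0.953 and 0.952, where the next was 0.971, and the lowest levels of long transcripts relative to short ones, with a log2 difference of -0.30 and -0.20 from the average library. The comparisons between groups below use all libraries unless stated, and for several results the value without these 2 is also given.

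Promoter sequence is shown for 4 members on which the comparisons below turn, each from 250 bases before to 50 bases after the start site. Psmb6 had one of the largest excesses in the libraries that stood apart, Psmc1 and Psmd8 the lowest p-values among the subunits of the cap in the aging comparison, and Psme4, with all libraries, a difference opposite in sign to nearly all other members. The windows are RefSeq's on GRCm38.p6, which gave one for 37 of the 44 members. Capitals mark matches on either strand to the ARE core TGACNNNGC, which Nfe2l1 and Nfe2l2 bind, the CCAAT box CCAAT, the ETS core CCGGAAG and the YY1 core AAGATGGCG, none of which overlaps another here.
Psmb6 (chr11:70525107-70525406, plus strand): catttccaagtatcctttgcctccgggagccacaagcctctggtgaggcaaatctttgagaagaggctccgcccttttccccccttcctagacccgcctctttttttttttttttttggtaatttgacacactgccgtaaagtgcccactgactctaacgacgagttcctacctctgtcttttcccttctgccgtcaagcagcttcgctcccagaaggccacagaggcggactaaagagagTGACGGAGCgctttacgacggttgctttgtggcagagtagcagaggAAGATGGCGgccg
Psmc1 (chr12:100109952-100110251, plus strand): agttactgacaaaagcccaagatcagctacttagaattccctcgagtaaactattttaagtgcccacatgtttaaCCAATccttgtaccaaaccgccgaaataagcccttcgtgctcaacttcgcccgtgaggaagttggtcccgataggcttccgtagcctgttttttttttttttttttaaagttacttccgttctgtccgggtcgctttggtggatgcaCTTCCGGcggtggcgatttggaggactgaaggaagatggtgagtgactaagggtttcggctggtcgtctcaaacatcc
Psme4 (chr11:30771525-30771824, plus strand): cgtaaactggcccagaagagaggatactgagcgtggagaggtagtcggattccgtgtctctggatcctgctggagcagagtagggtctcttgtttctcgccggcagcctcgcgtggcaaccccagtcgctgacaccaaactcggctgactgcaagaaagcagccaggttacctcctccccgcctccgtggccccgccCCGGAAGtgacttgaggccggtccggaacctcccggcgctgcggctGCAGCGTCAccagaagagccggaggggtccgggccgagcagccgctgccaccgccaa
Psmd8 (chr7:29180624-29180923, minus strand): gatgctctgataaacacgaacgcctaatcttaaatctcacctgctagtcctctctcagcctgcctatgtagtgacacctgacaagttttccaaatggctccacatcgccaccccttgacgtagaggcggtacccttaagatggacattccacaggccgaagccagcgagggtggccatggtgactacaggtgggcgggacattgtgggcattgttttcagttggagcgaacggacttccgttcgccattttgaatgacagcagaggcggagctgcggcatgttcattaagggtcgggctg
The Psmb6 window held an ARE core and a YY1 core, that of Psmc1 a CCAAT box and an ETS core, that of Psme4 an ARE core and an ETS core, and that of Psmd8 none of the 4 motifs. Among the 37 members, the ETS core was in 14 windows (37.8%), compared with 9.93% of the 27025 genes with a window. The ARE core was in 6 members (16.2%, against 14% of all genes), namely Psmb5, Psmb6, Psmc6, Psmd9, Psmd12 and Psme4. The CCAAT box was in 12 members (32.4%, against 41.1%) and the YY1 core in Psmb6 and Psmc5 only of those with a window (5.41%, against 1.64%). These are matches of letters, and no binding was measured.

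Proteasome transcripts made up a median of 0.365% of the counts of a library. Levels between members were compared as CPM per kilobase of the longest annotated transcript. The highest was Psmc5, an ATPase of the cap, with a median of 115 CPM per kilobase over the 47 libraries, followed by the catalytic subunit Psmb6 (99.9), Psmb2 (98.5), Psma6 (96.3) and the ATPase Psmc3 (92.3). The lowest was the assembly chaperone Psmg3 at 3.67, and next came Psme4, the nuclear activator PA200, at 5.87. By role the medians were 44.3 CPM per kilobase for the 7 alpha subunits, 61.2 for the 8 beta subunits, 62.3 for the 6 ATPases, 45.7 for the 14 non-ATPase members, 10.8 for the 5 activators and inhibitor, and 12.4 for the 4 assembly chaperones. Subunits that enter each particle in equal number were thus not at equal transcript level: the alpha ring ran from 23.9 (Psma5) to 96.3 (Psma6), a 4.04-fold range, and the ATPase ring from 29.5 (Psmc2) to 115 (Psmc5), a 3.90-fold range. Longest-transcript length divides out only part of such differences, because the isoform that is used may be shorter. The activators differed most, by 8.08-fold, and Psme3, the subunit of the nuclear activator PA28 gamma, stood out at 47.4 CPM per kilobase above Psme1 (13.2) and Psme2 (10.8), the paired subunits of the interferon-induced activator PA28 alpha-beta. Several members overlap another gene on the chromosome, such as Psmb7 with Nek6, Psmd13 with Sirt3, Psma2 with AW209491 and Psme1 with Emc9, and reads of the overlap cannot be assigned by strand in unstranded libraries.

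**Figure D1:**
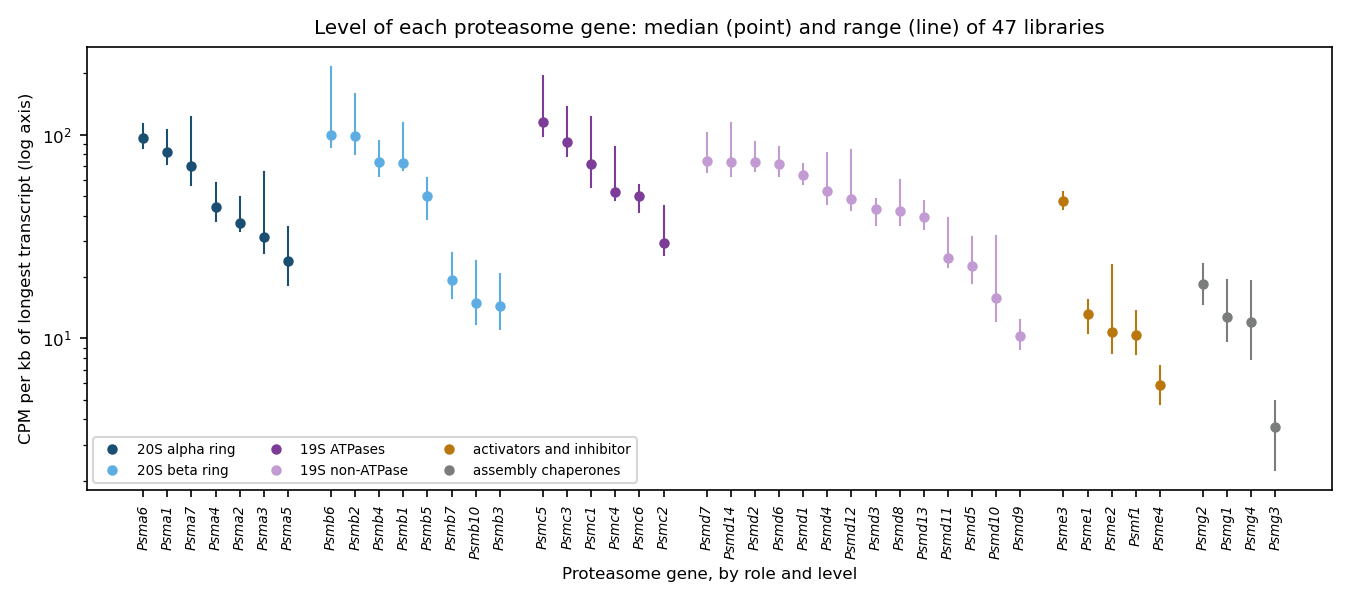
The level of each of the 44 proteasome genes in CPM per kilobase of its longest transcript (log axis), grouped by role, with the median (point) and the lowest and highest of the 47 libraries (line). Psmc5 is highest at 115 and Psmg3 lowest at 3.67, and the activators other than Psme3 and the assembly chaperones lie below most subunits of the core and cap.

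The largest differences in proteasome transcripts lay between individual libraries rather than between groups. Over the 44 members, the mean of log2 CPM centred on each gene was 0.45 in Young Veh replicate 4 and 0.42 in Old PF4 replicate 8, and the next library, Young PF4 replicate 4, was at 0.19. In each of the first pair, 33 of the 44 members (75%) were higher than in all of the other 45 libraries, and 31 were so in both. The pair was picked for this mean, so an excess of members there was in part fixed by the choice and has no test. Of all genes tested, 17.6% were above the other 45 in each of these libraries and 12.9% in both, so many genes besides the proteasome differed there. The median member exceeded its median over all libraries by 0.48 on the log2 scale in Young Veh replicate 4 and by 0.44 in Old PF4 replicate 8, and the median over all genes tested was 0.00 in each. The low ratio of long to short transcripts in these libraries moved with the excess, and its part was not tested. Their totals were 19508854 and 12380047 counts and their choroid plexus scores 5.84 and 0.69, and Young Veh replicate 4 was the highest of its group in both. The part of depth and of choroid plexus tissue was not tested.

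The excess was not even over the complex. Psmb6, which carries the caspase-like activity of the core, was at 207 CPM in Young Veh replicate 4 and 180 CPM in Old PF4 replicate 8, against a lowest of 84.5, a median of 96.2 and a highest of 136 CPM in the other 45. The alpha subunit Psma3 was at 186 and 172 CPM, against a range of 75.0 to 116 CPM. Psmd10 (gankyrin), a chaperone of the cap's base, was at 45.7 and 41.6 CPM against 17.5 to 30.9 CPM, and Psme2 was at 21.9 and 17.4 CPM against 8.19 to 15.2 CPM. For these 4 genes both libraries lay above every other. Psmb5, which carries the chymotrypsin-like activity that clinical proteasome inhibitors block, stood out less, with 55.4 CPM in Young Veh replicate 4 just above the highest of the other 45 (55.2 CPM) and 52.1 CPM in Old PF4 replicate 8 below it.

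Some members stood out little or in neither library. Psme3 was at 125 and 126 CPM in these libraries, next to a median of 126 CPM in the other 45. The cap chaperone Psmd9 was at 27.3 and 28.8 CPM against a median of 27.1 CPM, and the ATPase Psmc6, the single ATPase of 6 not above all other libraries in either, was at 115 and 127 CPM against a median of 110 and a highest of 127 CPM, so that its level in Old PF4 replicate 8 was close to the top of the other 45. Psmd3, a scaffold subunit of the cap's lid, went the other way: it was at 113 and 105 CPM against a median of 125 CPM, and its level in Old PF4 replicate 8 was the lowest of the 47. By role, the share of members above all other 45 libraries in both was 85.7% of the alpha subunits (6 of 7), 75% of the beta subunits (6 of 8), 83.3% of the ATPases (5 of 6), 78.6% of the non-ATPase members (11 of 14), 40% of the activators and inhibitor (2 of 5, Psme2 and Psmf1) and 25% of the assembly chaperones (1 of 4, Psmg1). Across the 44 members, the differences of these 2 libraries from the median of the 47 had a Pearson r of 0.916 and a Spearman rho of 0.930, as a description over genes that share each library. Over all genes tested, the deviations of the 2 libraries from their group means had a correlation of 0.612.

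**Figure D2:**
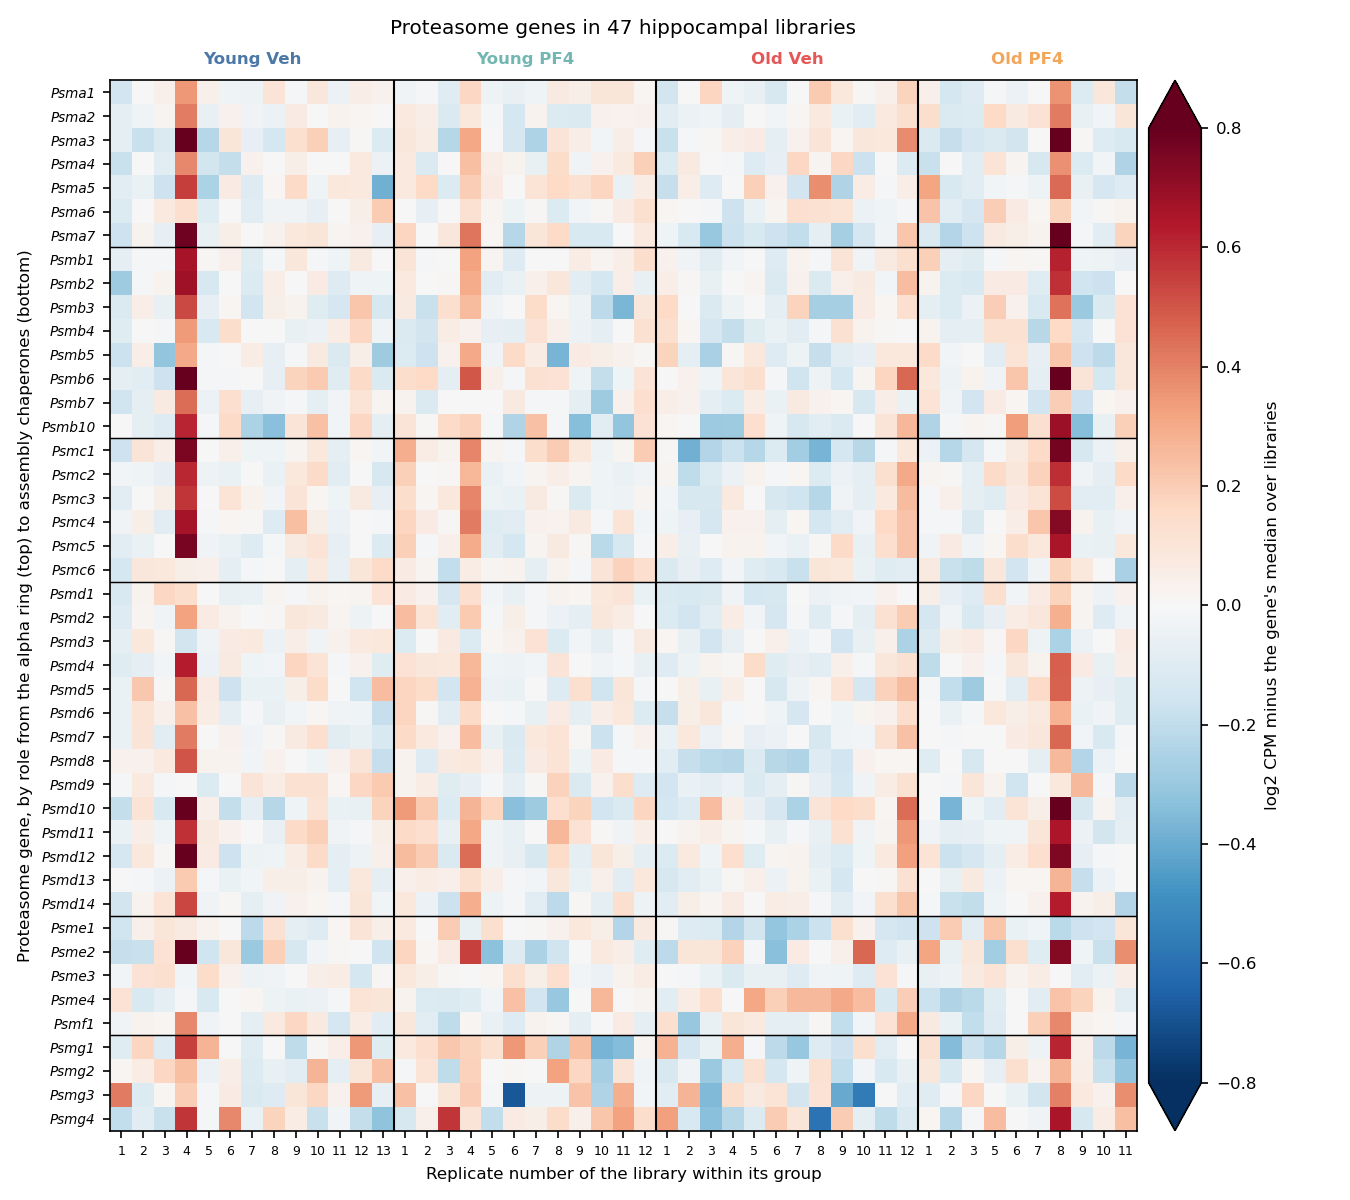
Log2 CPM of the 44 proteasome genes (rows, by role) in the 47 libraries (columns, by group and replicate number), each minus the gene's median over libraries, with colours saturating at 0.8 in either direction. Young Veh replicate 4 and Old PF4 replicate 8 show as red columns, weaker red appears in Young PF4 replicate 4, and Psmd3, Psmd9, Psme1 and Psme3 stay pale or blue in them.

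Members also moved together from library to library. After the group means were removed, the median Pearson r of the 946 pairs of members was 0.460 over the 47 libraries, and the median r of members with all genes tested was 0.00. Much of this rested on the libraries that stood apart: without them the median over the 946 pairs was 0.187 (45 libraries), with 76.3% of pairs above 0. Part of this fall follows from the choice of those libraries for their high mean over the members. The median was 0.529 without the 8 shallowest libraries, and 0.280 over the 47 after the difference between long and short transcripts was removed from each gene. These correlations describe points that share library, depth and preparation, and have no test.

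The ATPases of the cap were the tightest group. The 10 pairs among Psmc1, Psmc2, Psmc3, Psmc4 and Psmc5 had r between 0.871 and 0.914 over the 47 libraries and between 0.642 and 0.778 over the 45, where Psmc2 with Psmc4 was the highest of all 946 pairs. Psmc6, which completes the same ring, did not follow them: its r with the other 5 was 0.086 to 0.249 over the 47 libraries and -0.164 to 0.049 over the 45. Its highest r was with Psma1, 0.595 over the 47 libraries and 0.574 over the 45. The other pairs with high r over the 45 libraries included Psmc5 with the lid subunit Psmd7 (0.758) and Psmd11 with Psmd7 (0.754). Within the other roles the median r fell from 0.605 to 0.333 among the alpha subunits, from 0.605 to 0.384 among the beta subunits and from 0.603 to 0.325 among the non-ATPase members when the 2 libraries were left out. The activators and inhibitor had a median r of -0.02 over the 47 and -0.04 over the 45 libraries, and the assembly chaperones 0.145 and -0.09. Psmg1, Psmg3 and Psmg4 were among the members of fewest reads, and the part of read number in these correlations was not tested. Psmd3 ran against the rest, with r below 0 for 40 of the other 43 members over the 47 libraries and for 32 over the 45, lowest with the lid subunit Psmd11 (-0.698 and -0.544).

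The within-group spread of members was small. The median SD of log2 CPM over the 44 members was 0.152, and 0.103 without the libraries that stood apart, compared with 0.214 and 0.195 for all genes tested, which include many genes of lower count. Psme3 had the smallest spread of the members over the 47 libraries, an SD of 0.066 on the log2 scale, and over the 45 libraries Psmd13 (0.065) and Psme3 (0.068) had the smallest.

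**Figure D3:**
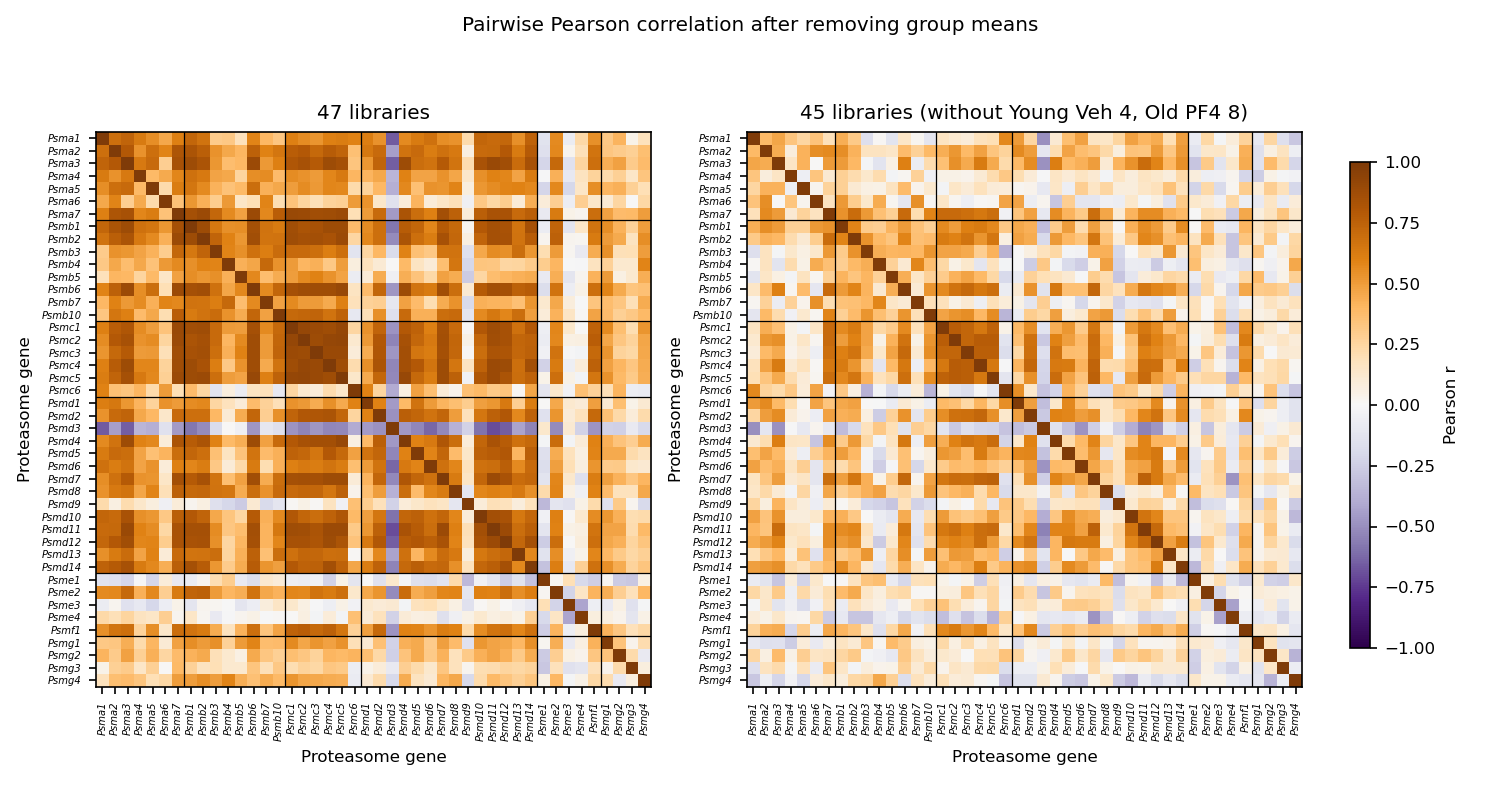
Pearson r of each pair of the 44 proteasome genes across libraries after removal of group means, over all 47 libraries (left) and over 45 libraries without Young Veh replicate 4 and Old PF4 replicate 8 (right), with black lines between roles. The block of Psmc1 to Psmc5 stays dark in both. Psmc6 is pale against the other ATPases but not against Psma1 or Psmd1, Psme1 is pale, and Psmd3 is purple against most members.

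The comparison of Old Veh with Young Veh asked how aging alters the hippocampus. In the test of edgeR (quasi-likelihood F test with Benjamini-Hochberg adjustment over all genes tested), 1 of the 44 members was called at an adjusted p below 0.05, where 2.77% of all genes tested were called and 0.607% were called lower. That member was Psmd8 (Rpn12), the subunit that joins the cap's lid last. Psmd8 had a lowest of 73.8, a median of 86.0 and a highest of 119 CPM in Young Veh and a lowest of 71.2, a median of 76.7 and a highest of 86.2 CPM in Old Veh. The ranges overlapped, with most Old Veh libraries below most Young Veh libraries. The log2 fold change was -0.18 (SE 0.049, 95% interval -0.28 to -0.08, n = 13 and 12, edgeR adjusted p = 0.0304). Without the libraries that stood apart it was -0.13 (edgeR adjusted p = 0.0233). The call did not hold in every fit: leaving out single libraries of the 2 groups kept it in 20 of 25 fits and lost it without Old Veh replicate 2, 3, 4, 6 or 7 (edgeR adjusted p up to 0.0566, log2 fold change -0.16 to -0.17). The fold moved most without Young Veh replicate 4, to -0.13, where the call was kept. It was also lost when the choroid plexus marker score, which differed between the ages as given above, was a covariate (-0.17, edgeR adjusted p = 0.0834), when the 8 shallowest libraries were left out (-0.17, edgeR adjusted p = 0.126) and when the 2 groups were fitted alone (-0.17, edgeR adjusted p = 0.0641). The part of choroid plexus tissue in this difference was not tested. In the mice given PF4, which share no library with this comparison, Psmd8 had medians of 85.8 CPM in Young PF4 and 82.7 CPM in Old PF4 and a log2 fold change with age of -0.04 (95% interval -0.14 to 0.06, edgeR adjusted p = 0.91), which was -0.07 (95% interval -0.15 to 0.00, edgeR adjusted p = 0.544) without Old PF4 replicate 8 and Young Veh replicate 4.

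The other 43 members did not pass, and most were estimated within a narrow interval. In 33 of 44 members the 95% interval of the log2 fold change lay within 0.25 of 0 in both directions, compared with 46.7% of all genes tested, and without the libraries that stood apart it did in 40. The sign of most members depended on the libraries that stood apart, of which 1 is Young Veh. Both libraries were picked for a high mean over the members. Leaving out the Young Veh one thus tends to move the members' log2 fold changes up. With all libraries 42 of 44 members had a log2 fold change below 0 (median -0.05, compared with -0.01 and 54.7% below 0 over all genes tested). Without them 19 were below 0 and 25 above (median 0.01), and with the difference between long and short transcripts as a covariate 18 were below 0. At an unadjusted p below 0.05 there were 9 members (20.5%, against 15.2% of all genes tested), and without the libraries that stood apart 8 (18.2%, against 18.4%).

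By role, the smallest p-value among the core's alpha subunits was that of Psma7, with a log2 fold change of -0.19 (edgeR adjusted p = 0.265), which was -0.10 without the libraries that stood apart (edgeR adjusted p = 0.278), and next came Psma2 at -0.04. In the beta ring, no member had an unadjusted p below 0.05. The catalytic subunits Psmb5, Psmb6 and Psmb7 had log2 fold changes of 0.00, -0.07 and -0.04, Psmb10, the inducible counterpart of Psmb7, was at -0.07, and Psmb4 and Psmb1, structural subunits, were each at -0.05. Without the libraries that stood apart these 6 beta subunits lay between -0.02 (Psmb4) and 0.06 (Psmb6). For Psmb5 the 95% interval was -0.12 to 0.12, whereas the interval of Psmb6 (-0.28 to 0.14) was widened by the libraries that stood apart and narrowed to -0.05 to 0.18 without them.

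Among the ATPases, Psmc1 had the lowest log2 fold change. Its lowest, median and highest CPM were 102, 116 and 193 in Young Veh and 87.7, 100 and 122 in Old Veh, so that most Old Veh libraries were below the Young Veh median and the ranges overlapped. The log2 fold change was -0.24 (SE 0.081, n = 13 and 12), which did not pass (edgeR adjusted p = 0.105), and it was -0.16 without the libraries that stood apart (edgeR adjusted p = 0.051). Psmc6 was at -0.08 and Psmc5, the most abundant member per kilobase, at -0.01, with a value of 0.07 for Psmc5 without those libraries. In the cap's non-ATPase part, Psmd1, a large scaffold of the base, was at -0.08 (edgeR adjusted p = 0.193) and the deubiquitinase Psmd14, which cuts the ubiquitin chain from the substrate, at -0.01, which was 0.04 without those libraries. The assembly chaperones Psmg2 and Psmg3 were at -0.13 and -0.14 (edgeR adjusted p = 0.29 and 0.453).

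The activators held the 1 member whose 95% interval lay above 0. Psme4 opens the core without ATP and is known for roles in chromatin and DNA repair. Its lowest, median and highest CPM were 35, 37.7 and 41.3 in Young Veh and 35, 43.6 and 47.3 in Old Veh, so that the upper part of Old Veh lay above every Young Veh library. The log2 fold change was 0.16 (SE 0.055, n = 13 and 12), which did not pass (edgeR adjusted p = 0.105), and was 0.16 also without the libraries that stood apart (edgeR adjusted p = 0.0655). It passed in 1 fit, the one without Old Veh replicate 11. In the mice given PF4 the Psme4 medians were 37.8 CPM in Young PF4 and 35.9 CPM in Old PF4, a log2 fold change of -0.02 (95% interval -0.14 to 0.10). Psme1 and Psme2 were at -0.12 (edgeR adjusted p = 0.246) and -0.06 in Old Veh against Young Veh, with Psme2 at 0.09 without the libraries that stood apart, and reads of Psme2 are uncertain because the mouse genome holds a near-identical copy of this gene.

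**Figure D4:**
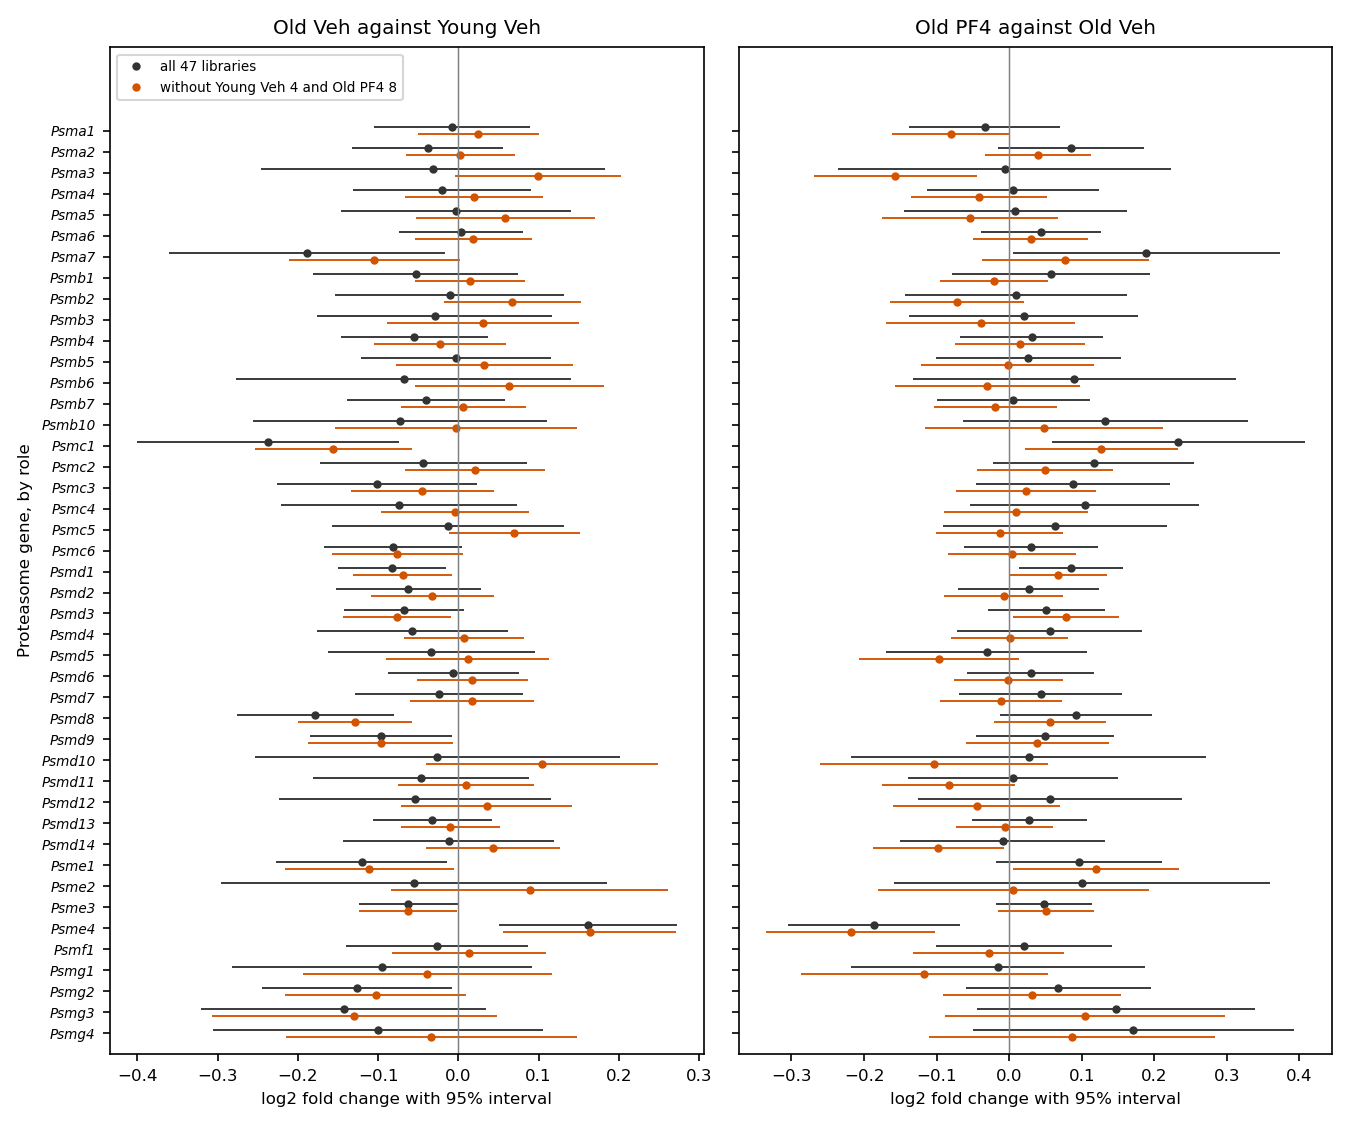
Log2 fold changes with 95% intervals of the 44 proteasome genes in Old Veh against Young Veh (left) and Old PF4 against Old Veh (right), from edgeR with all 47 libraries (dark) and with 45, without Young Veh replicate 4 and Old PF4 replicate 8 (orange). On the left, 42 dark points lie below 0 and 19 orange ones; on the right, 38 dark points lie above 0 and 21 orange ones. Psmd8, Psmc1 and Psme4 keep their side of 0 in both panels.

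The comparison of Old PF4 with Young PF4 gave the age difference in treated mice. None of the 44 members was called (0.332% of all genes tested were), none had an unadjusted p below 0.05 (8.27% of all genes tested did), and DESeq2 also called none. Of the members 27 were above 0 (median 0.01), and without the libraries that stood apart, of which 1 is Old PF4, 33 were below 0 (median -0.05) and 5 had an unadjusted p below 0.05 (11.4%, against 10% of all genes tested). The smallest p with all libraries was that of the alpha subunit Psma2, at a log2 fold change of 0.09 (edgeR adjusted p = 0.681), which was 0.05 without the libraries that stood apart. Psmc1 was at -0.05 with all libraries (edgeR adjusted p = 0.944), and at -0.15 without those, where it had the smallest p (edgeR adjusted p = 0.226). The 95% interval lay within 0.25 of 0 for 38 of 44 members, and for 40 without those libraries.

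The comparison of Old PF4 with Old Veh asked what PF4 does in the aged hippocampus, and it shares the Old Veh libraries with the aging comparison. None of the 44 members was called (0.0337% of all genes tested were), DESeq2 called none, and 4 members (9.09%, against 6.2% of all genes tested) had an unadjusted p below 0.05, namely Psme4, Psmc1, Psma7 and Psmd1. With all libraries 38 members were above 0 (median 0.05, against 0.01 over all genes tested), and without the libraries that stood apart 21 were, and 7 members had an unadjusted p below 0.05 (15.9%, against 7.82% of all genes tested). Of these 7, Psme4, Psma3 (-0.16) and Psmd14 (-0.10) were below 0, and Psmc1, Psme1 (0.12), Psmd3 (0.08) and Psmd1 (0.07) were above 0, with none called. Psme4 had the smallest p. Its lowest, median and highest CPM in Old PF4 were 32.2, 35.9 and 44.6, and the highest was that of Old PF4 replicate 8. The median of Old PF4 was below that of Old Veh and the ranges overlapped. The log2 fold change was -0.19 (SE 0.059, n = 10 and 12, edgeR adjusted p = 0.43), and -0.22 without the libraries that stood apart (edgeR adjusted p = 0.147). Psmc1 had CPM of 98, 112 and 195 (lowest, median and highest) in Old PF4 and a log2 fold change of 0.23 (edgeR adjusted p = 0.585), which was 0.13 without those libraries. Psmd8 was at 0.09 (edgeR adjusted p = 0.87), and at 0.06 without those libraries. Since both comparisons use the Old Veh mice, opposite signs in them for these genes are not separate evidence.

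The comparison of Young PF4 with Young Veh asked the same in young mice. None of the 44 members was called by edgeR or DESeq2 (0% of all genes tested were called by edgeR), and none had an unadjusted p below 0.05 (1.2% of all genes tested did). With all libraries 30 members were below 0, and without the libraries that stood apart 34 were above 0 and 3, Psmc1, Psma4 and Psma5, had an unadjusted p below 0.05 (6.82%, against 2.34% of all genes tested). The smallest p was that of Psmf1 (PI31), which inhibits the core in vitro, at a log2 fold change of -0.08 (95% interval -0.19 to 0.03), which was -0.04 without the libraries that stood apart. The smallest p was then that of Psmc1, at 0.12 (edgeR adjusted p = 1). The interval lay within 0.25 of 0 for 40 of 44 members, and for 42 without those libraries.

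The difference of the PF4 effects between the ages was called for none of the 44 members by edgeR or DESeq2 (0% of all genes tested by edgeR). With all libraries 37 members were above 0, and without the libraries that stood apart, which enter this contrast with the same sign, 29 were below 0. With all libraries Psme4 alone had an unadjusted p below 0.05 (3.98% of all genes tested did), at -0.18 (unadjusted p = 0.0313 from edgeR, adjusted p = 1). Without the libraries that stood apart 6 members had one (13.6%, against 5.97% of all genes tested): Psme4, Psma3, Psmd3, Psmb2, Psma5 and Psmd10, with none called and the smallest edgeR adjusted p at 0.755. The interval lay within 0.25 of 0 for 21 of 44 members, the fewest of the 5 comparisons, and for 30 without those libraries.

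**Figure D5:**
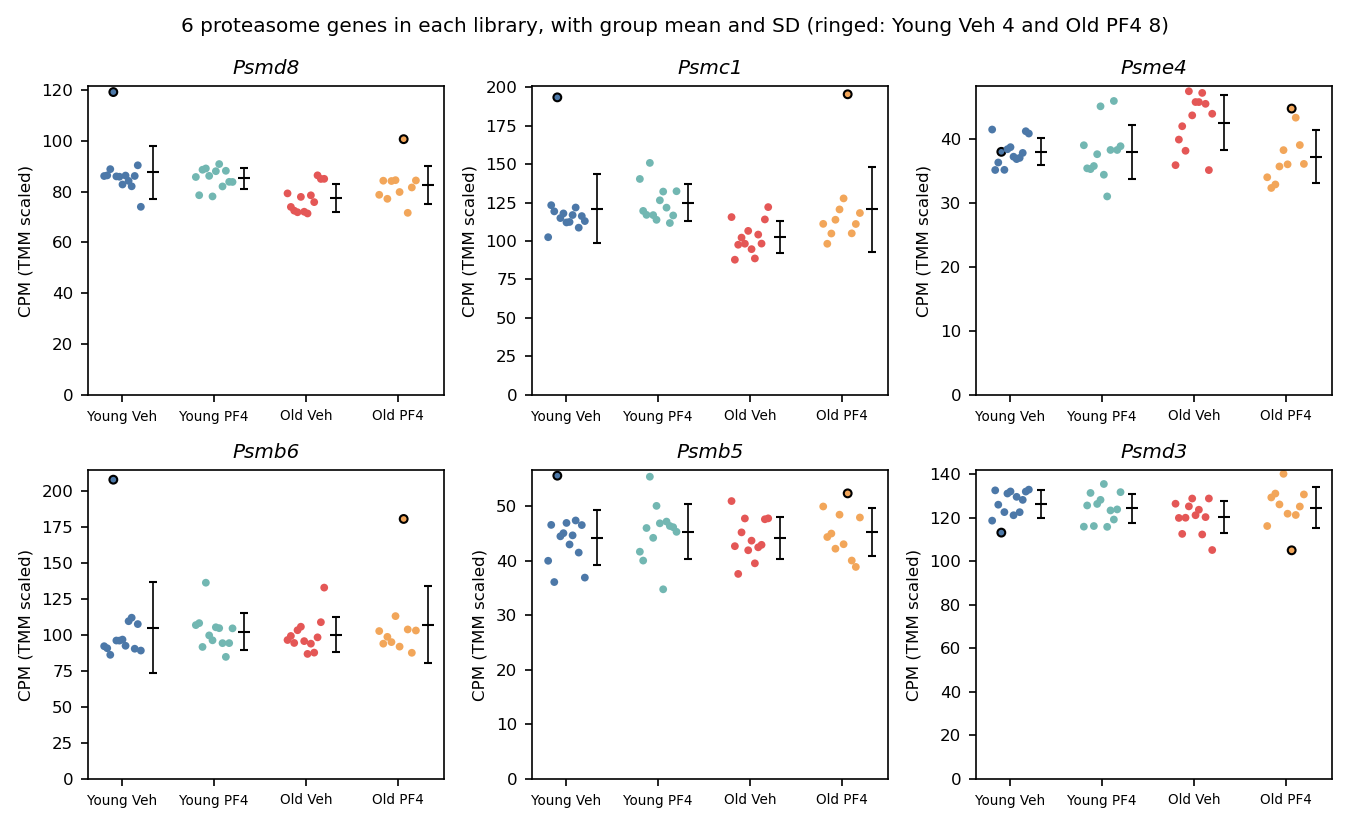
CPM (TMM scaled, from log2 CPM with a prior count of 2) of 6 proteasome genes in every library by group, with each group's mean and SD to the right of its points and a black ring around Young Veh replicate 4 and Old PF4 replicate 8. The ringed libraries are above all others for Psmb6, Psmc1 and Psmd8, near the top for Psmb5, and at or near the bottom for Psmd3, and Old Veh is lower for Psmd8 and Psmc1 and higher for Psme4 with overlap.

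Of the inducible subunits that interferon exchanges for the constitutive ones, Psmb8 and Psmb9 were not members but are given for comparison. Psmb8, the counterpart of Psmb5, had a lowest, median and highest of 3.56, 4.62 and 6.25 CPM in Young Veh and 4.46, 5.99 and 7.27 CPM in Old Veh. Its log2 fold change was 0.34 (edgeR adjusted p = 0.127), and 0.39 without the libraries that stood apart (edgeR adjusted p = 0.0495). In the mice given PF4 Psmb8 was at 0.36 with age (edgeR adjusted p = 0.349). Psmb9, the counterpart of Psmb6, was near 2 CPM in most libraries, with a log2 fold change of 0.22 in Old Veh against Young Veh (edgeR adjusted p = 0.626). The mean log2 CPM of the 5 microglial markers, cells in which the inducible subunits are known to be high, had medians of 5.57 in Young Veh, 5.59 in Young PF4, 5.75 in Old Veh and 5.82 in Old PF4, and their part in the Psmb8 difference was not tested.

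Other genes of the ubiquitin-proteasome path were taken as a list of 28 tested genes, among them the assembly factor Pomp, the shuttle factors Rad23b, Ubqln1, Ubqln2 and Ubqln4, the segregase Vcp, the ubiquitin gene Ubb and the transcription factors Nfe2l1 and Nfe2l2. None was called in any of the 5 comparisons by edgeR. In Old Veh against Young Veh, 20 of 28 were below 0 (71.4%, against 54.7% of all genes tested, median -0.03), and 17 without the libraries that stood apart (median -0.01). With all libraries 2 (7.14%, against 15.2% of all genes tested) had an unadjusted p below 0.05: Nfe2l2, the regulator of the oxidative stress response, at -0.16, and the ubiquitin ligase Ube3a at 0.08. In the other 4 comparisons none had an unadjusted p below 0.05, with or without those libraries.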

How the data were processed

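Hippocampal RNA of 47 samples was measured with Smart-Seq2 cDNA and Nextera XT libraries. The authors deposited unnormalized counts of reads for each gene. Per the submitters' processing notes reads were trimmed with Trim Galore 0.3.7 and aligned with STAR 2.5.3a to GRCm38, and the counting tool, its annotation and its treatment of overlapping genes are not given in the sources used here. The authors removed samples of low coverage. Smart-Seq2 libraries carry no molecular identifiers, so reads are not independent molecules.

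Groups came from the labels. All 4 groups entered 1 fit of edgeR 4.0.16 (R 4.3.3), tested by quasi-likelihood after TMM scaling and the filterByExpr count filter, and Benjamini-Hochberg adjustment ran over all 17778 genes tested. DESeq2 1.42.0, which the study's methods name, was an alternative. SE and 95% intervals came from the fit. CPM used TMM-scaled library sizes, and log2 CPM a prior count of 2. Transcript lengths (GENCODE, GRCm38) were found for 99.4% of genes tested, and long and short transcripts were those of at least 4038 and at most 2394 bases. The procedure was checked on simulated counts with 200 changed genes. Alternatives changed the test, scaling, count filter, groups fitted, covariates and libraries, and leaving out the 2 libraries that stood apart was chosen after seeing the data. The 2 were those of highest mean log2 CPM over the members, so results without them rest on a choice made on the members' levels.

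Members and lists were chosen with earlier results of these data known. Named genes were every called member, the 2 of smallest p per role in the aging comparison, the 1 of smallest p in each other comparison, the highest and lowest per kilobase, Psmb5, Psmb6, Psmb7, Psmb10, Psmd14, Psme1 and Psme2; the others named for their levels, their correlation or their values in the libraries that stood apart were chosen after their values were seen. Samples carry their own number and age in the labels, which do not state that each is a separate mouse, and p-values measure the spread between these libraries. Library numbers in the labels ran in blocks, 1 to 12 for Old Veh, 13 to 23 for Old PF4 and 24 to 48 for the young groups. Whether they follow an order of processing is not stated. Such an order could not be told apart from age or, in old mice, from PF4.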

Additional observations from a re-analysis of the deposited data

Results flagged for a closer look

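Within Old PF4, the group small enough for a check of single distant samples, replicate 8 was far above the nearest other library for 8 of the members named by the fixed rule. The gap to its neighbour as a share of the group's whole range in log2 CPM was 0.720 for Psmc5, 0.672 for Psmd14, 0.647 for Psmb6, 0.618 for Psmc1, 0.604 for Psma7, 0.60 for Psmb1, 0.514 for Psmd8 and 0.486 for Psma2, each above Dixon's 95% critical value for 10 samples. This is the library in which 33 of 44 members were above all of the other 45, so these are 1 pattern and not 8. Psmb9, which is not a member, was far below the others in Old PF4 replicate 5, with a ratio of 0.476 at 6 to 39 reads per library in the group. Chance alone passes this value in about 1 group in 20. The other groups have more than 10 libraries and were not checked this way.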

How the results depend on the processing

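The count of members called was 0 in every alternative for all comparisons but Old Veh against Young Veh. There it was 1 with all libraries, 0 with the 2 groups fitted alone, 0 with the choroid plexus score as a covariate, 0 without the 8 libraries of lowest depth, and 0 to 2 over the fits that left out 1 library each; the second member, without Old Veh replicate 11, was Psme4. The cause of these losses was not tested. The log2 fold change in that comparison changed sign, none past the threshold, for 9 of the members named by the fixed rule. With the difference between long and short transcripts as a covariate it became 0.00413 for Psma2, 0.0192 for Psmb1, 0.0813 for Psmc5, 0.0509 for Psmb5, 0.0858 for Psmb6, 0.0313 for Psmb10, 0.0538 for Psmd14 and 0.0879 for Psme2. Without the 2 libraries that stood apart it became 0.00262 for Psma2, 0.0147 for Psmb1, 0.0696 for Psmc5, 0.0325 for Psmb5, 0.0635 for Psmb6, 0.00619 for Psmb7, 0.0427 for Psmd14 and 0.0887 for Psme2. Without the 8 shallowest libraries it was 0.0378 for Psmb5 and 0.00458 for Psmd14, with the groups alone 0.0010 for Psmb5, and with the choroid plexus score 0.0197 for Psme2. Over all genes tested, 492 were called in that comparison, and 807 without the 2 libraries that stood apart. Of the log2 fold changes of named genes under these alternatives (fits without 1 library for Psmd8 only), 244 kept direction and side of the threshold, 8 lost a call and 2 gained one (Psmb8 with the length covariate and without the 2 libraries).

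The replicate numbers did not pair the mice: over 66 same-numbered pairs of libraries the median correlation was -0.01, the lowest -0.42, and 6 of 47 libraries were closest to one of their own number. A fit with the replicate number as a block called 1, 0, 0, 0 and 0 members in the 5 comparisons. Psmg4, Psmg3 and Psme2 were the members of fewest reads, and the part of depth in their spread was not tested.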
